A study of Caenorhabditis elegans with 6 samples.

Results

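The messenger RNA of wild-type *Caenorhabditis elegans* was described from 3 libraries of the laboratory strain N2, taken as the libraries whose sample titles name that strain. These are 3 of the 6 libraries of the series. The other 3 come from an *mbl-1* mutant and were not analysed here. The study concerned the splicing factor MBL-1 and lifespan, and N2 was its control strain.

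The animals were hermaphrodites grown at 20 °C on HT115 bacteria that carried an empty RNA interference vector. They were synchronised by bleaching, moved at the last larval stage to plates with 10 µM 5-fluorouracil, and frozen on day 2 of adulthood, the fifth day from hatch. 5-fluorouracil blocks thymidylate synthesis and also enters RNA, and was used to keep progeny from hatching. Whole animals were lysed, so each library mixes all tissues, and fewer cells of a type cannot be told apart from less RNA per cell. The labels call the 3 libraries biological replicates but do not say how many animals each holds. Libraries were made from polyadenylated RNA, a selection that favours messages with a poly(A) tail.

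A day 2 hermaphrodite is at the height of egg production. Its intestine makes vitellogenins, the yolk lipoproteins that are secreted into the body cavity and taken up by growing oocytes, while its gonad loads each oocyte with maternal messages and eggshell components. The somatic cells no longer divide, and sperm formation ended at the last larval stage, before the switch to oocytes.

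The gene counts came to 19253864, 20750318 and 17574738 reads in N2 replicates 1, 2 and 3, and series of values below keep that order. Between 88.79% and 88.97% of the listed reads fell on genes, 9.74% to 9.87% aligned to several places, 0.821% to 0.826% touched several genes and 0.463% to 0.512% fell outside genes. CPM is a gene's count scaled to 1e+06 gene counts of its library, so it gives a share of reads. TPM first divides each count by the gene's exon length, and is the scale for levels of different genes, while CPM compares the reads they took. A count of 3, used as the floor for genes at 0, stands for 0.156, 0.145 and 0.171 CPM, and covers counting error only.

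Few genes held much of the library. The gene with the most reads took 2.72% ± 0.116 (SD, n = 3) of the counts, the first 10 genes took 10.0% ± 0.192 and the first 100 took 24.7% ± 0.131. Ranked within each library, 633, 623 and 618 genes together held 50% of the counts. The first 1000 genes held 58.7% ± 0.264. A set of 4119, 4077 and 4055 genes was needed for 90% of the counts and 8197, 8146 and 8098 genes for 99%.

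The head of the ranking was shared between the libraries. Of the 10 genes with most counts, 9 were in the first 10 of all 3 libraries, and the same held for 19 of the first 20, 93 of the first 100 and 956 of the first 1000. Per base of exon the first 10 genes held a smaller share, 5.89% ± 0.096 of TPM, and the first 100 a larger one, 30.3% ± 0.211. On that scale 359, 359 and 358 genes held 50% of TPM. The counts thus had a few very long, very abundant messages at the top, and TPM had a broad shelf of short ones.

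**Figure D1:**
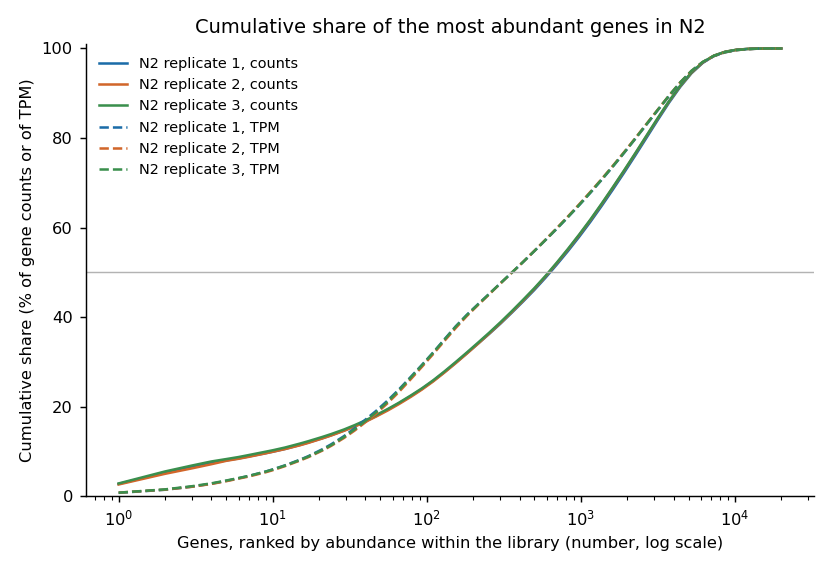
Cumulative share of gene counts (solid lines) and of TPM (dashed lines) in percent against the number of genes, ranked within each N2 library, on a log axis. The 3 libraries lie on top of each other, and the TPM lines start lower (5.89% at 10 genes against 10.0% of counts) and cross above the count lines before 100 genes (30.3% against 24.7%).

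Vitellogenin genes led the ranking of single genes by counts, and as a class they came after the cytosolic ribosomal proteins. All 6 genes, *vit-1* to *vit-6*, were among the 11 genes of highest mean CPM, and together they took 7.81%, 7.26% and 8.10% of the counts (7.72% ± 0.427, n = 3). Replicate 2 had the lowest share and replicate 3 the highest. The genes *vit-6*, *vit-2* and *vit-5* together held 84.6% of the vitellogenin counts.

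*vit-6* (chromosome IV, 8261157 to 8266459, WBcel235), the sole vitellogenin gene off the X chromosome, took 27254, 25995 and 28308 CPM. *vit-2* (X, 5101042 to 5106169) took 24970, 23840 and 26755 CPM. *vit-5* (X, 3403471 to 3408603) took 13316, 12284 and 13344 CPM. Each of these yolk genes was lowest in replicate 2 and highest in replicate 3.

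*vit-1* (X, 7727889 to 7733168) stood at 5530, 4326 and 5364 CPM. *vit-3* (X, 3567355 to 3572549) stood at 3988, 3413 and 4063 CPM. The neighbouring *vit-4* (X, 3558769 to 3563965) stood at 3085, 2731 and 3139 CPM. Replicate 2 was the lowest for these genes too. The vitellogenins of the X chromosome resemble each other closely, and a read placed equally well on several genes was dropped. The split among *vit-1* to *vit-5* is therefore uncertain and their sum may be too low. Per base of exon the order of means was *vit-6* (6987 ± 330 TPM), *vit-2* (6645 ± 426), *vit-5* (3469 ± 165), *vit-1* (1298 ± 166), *vit-3* (1010 ± 95.5) and *vit-4* (787 ± 59.8). On uniquely placed reads, only the ranges of *vit-6* and *vit-2* overlapped. The closest pair after them was *vit-1*, with 1106 to 1403 TPM, and *vit-3*, with 902 to 1083 TPM.

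Translation factors and chaperones came next. *eef-1A.1* (III, 6970026 to 6971712), the elongation factor that brings aminoacyl-tRNA to the ribosome, took 8657, 9163 and 8987 CPM and was the gene of highest mean TPM (7567 ± 262). Its TPM values of 7269, 7758 and 7674 overlapped with those of *vit-6* (6945, 6680 and 7336). *eef-2*, the factor that moves the ribosome along the message, took 4454, 4424 and 4498 CPM.

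The cytosolic chaperone gene *hsp-90* took 4426, 4523 and 4507 CPM, and *hsp-1*, the constitutive member of the Hsp70 family, took 3304, 3404 and 3399 CPM. Both varied little, with SDs of 52.02 and 56.4 CPM. The remaining genes among the first 20 by CPM were *rrn-3.1*, *cgh-1*, *far-2*, *cpg-2*, *rpl-3*, *cey-2*, *rps-8*, *cbd-1*, *rpl-7* and *ant-1.1*, which include germline RNA-binding proteins, eggshell proteins, ribosomal proteins and a mitochondrial carrier.

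One of these 20 genes did not hold its place. *rrn-3.1* (I, 15064838 to 15068346), a copy of the large ribosomal RNA gene, took 3255, 7575 and 2034 CPM, 3.73-fold higher in replicate 2 than in replicate 3. Ribosomal RNA has no poly(A) tail, its gene is repeated in tandem, and 679 of the 3509 exon bases of *rrn-3.1* also lie in another annotated gene. All genes annotated as rRNA took 0.329%, 0.761% and 0.207% of the counts, and whether this reflects the poly(A) selection was not tested. Left out of the totals, it moved the vitellogenin share from 7.72% to 7.76%.

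The first 20 genes by TPM were different genes for the most part. Only 6 genes were among the first 20 on both scales, and the median exon length was 526 bases for the TPM set against 2316 for the CPM set. Of the TPM set, 14 were in the class of cytosolic ribosomal proteins, against 3 of the CPM set. *rpl-41.2*, which encodes a very small protein of the large subunit, stood at 6940, 6450 and 6411 TPM. *far-2*, a fatty acid and retinol binding protein, stood at 6439, 6169 and 6289 TPM. The ranges of *rpl-41.2* and *far-2* overlapped with that of *vit-2*, so the order of these genes was not resolved. Between *rpl-41.2*, *far-2* and *rps-24* (4952 ± 243 TPM) lay *Y37E3.8* (5657 ± 156 TPM), which has no class here. Classes rest on gene symbols, so a gene without a class may still encode a ribosomal protein.

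**Figure D2:**
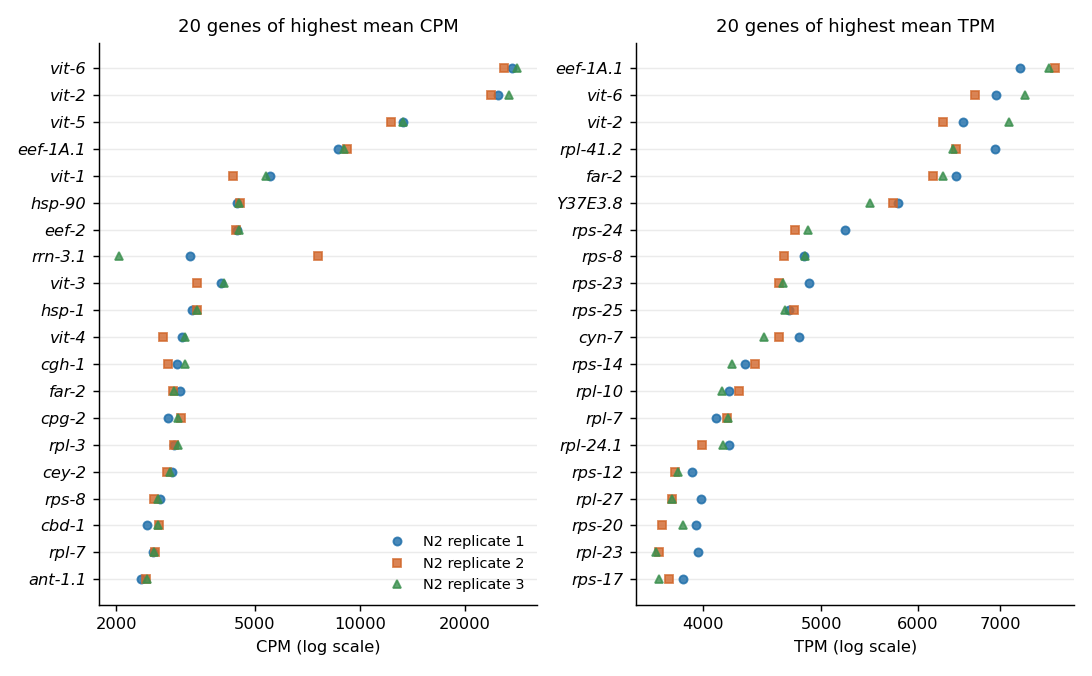
The 20 genes of highest mean CPM (left) and of highest mean TPM (right), with 1 point per N2 library on log axes. *vit-6*, *vit-2* and *vit-5* stand apart on the left and *rrn-3.1* spreads from 2034 to 7575 CPM. Of the 20 genes on the right, 14 are in the class of cytosolic ribosomal proteins, which is set by gene symbol.

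Cytosolic ribosomal proteins were the class with the largest share of counts among the 45 gene classes. The 82 genes took 9.30%, 9.07% and 9.13% of the counts (9.16% ± 0.119) and 21.01% ± 0.244 of TPM, and 81 of them had a count in all 3 libraries. The members were evenly loaded: 25 genes were needed for 50% of the class, the leading gene *rpl-3* held 3.22% of it, and the 10th and 90th percentiles of TPM were 1382 and 4117. The median TPM was 2307 over the 49 detected genes of the large subunit and 2772 over the 31 of the small subunit. All 31 small-subunit genes and 43 of the 49 large-subunit genes reached 1000 TPM. The lowest was *rpl-24.2* at 108 TPM. Paired copies of a ribosomal protein gene could read too low where reads fit both.

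*rps-24*, a small-subunit gene, stood at 1923, 1736 and 1765 CPM. *rps-8* took 2676, 2559 and 2636 CPM and *rpl-7* took 2553, 2584 and 2568 CPM. Across the class the median CV between libraries was 2.90%, so that the spread of a ribosomal protein gene was small beside the differences between genes of the class.

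Other parts of the translation and protein folding machinery were detected almost completely. The 44 translation factor genes, all detected, held 2.90%, 2.90% and 2.91% of the counts (2.91% ± 0.00871), of which *eef-1A.1* alone made up 30.8%. *iff-1*, an initiation factor 5A gene of which 138 of 674 exon bases overlap another gene, stood at 2125 ± 45.6 TPM and *eef-2* at 2072 ± 31.2 TPM. Chaperones held 2.73%, 2.76% and 2.74% of the counts over 93 genes, 89 of them detected. Among them *cyn-7*, a cyclophilin, stood at 4631 ± 151 TPM, *hsp-90* at 2475 ± 46.6 TPM and *hsp-1* at 2115 ± 51.2 TPM. *cyn-7* lay above *hsp-90* and *hsp-1* in every library.

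Ubiquitin and proteasome genes held 1.72% ± 0.0216 of the counts, with 59 of 60 detected. *ubq-2*, which encodes ubiquitin fused to a ribosomal protein, stood at 3488 ± 131 TPM, and the proteasome core genes *pas-5* and *pas-3* stood at 655 ± 11.03 and 620 ± 16.5 TPM. The much larger set of 470 F-box, MATH and BTB genes, adaptors that bring substrates to ubiquitin ligases, held 0.461% ± 0.0043 of the counts. Of these, 384 were detected, 222 reached 1 CPM in every library, and the median of those detected was 1.93 TPM. *skr-1* and *skr-2*, which link F-box proteins to the cullin, led with 355 ± 5.85 and 338 ± 5.36 TPM.

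Germline messages formed the next block. The 63 oocyte and maternal RNA-binding genes, all detected, held 2.67%, 2.69% and 2.76% of the counts (2.70% ± 0.0473). *cey-2*, a Y-box RNA-binding protein of the germline, took 2890, 2805 and 2856 CPM. *cgh-1*, an RNA helicase that protects stored maternal messages, took 2990, 2806 and 3147 CPM. *car-1*, its partner in germline granules, took 1789, 1749 and 1810 CPM. Replicate 2 was the lowest for each of these genes although it was not the lowest for the class as a whole.

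The 28 eggshell and egg activation genes, 26 of them detected, held 1.43%, 1.56% and 1.51% of the counts, lowest in replicate 1 and highest in replicate 2. *cpg-2*, a chondroitin proteoglycan of the eggshell, took 2810, 3077 and 3000 CPM. *cbd-1*, a chitin-binding protein of its outer vitelline layer, took 2445, 2652 and 2635 CPM. *perm-4*, needed for the permeability barrier, took 1241, 1387 and 1373 CPM. Each of these eggshell genes was lowest in replicate 1, by more than the difference between replicates 2 and 3. *cpg-1*, also of this class, was lowest in replicate 1 too, but by less than that difference (1899, 2133 and 1994 CPM).

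Cyclin and cell division genes were similarly ordered. The 49 genes, all detected, held 1.09%, 1.16% and 1.11% of the counts. *cyb-3*, a B-type cyclin, took 1039, 1156 and 1094 CPM, *pcn-1*, the sliding clamp of DNA replication, took 634, 699 and 642 CPM, and *rnr-2*, a subunit of ribonucleotide reductase, took 715, 790 and 707 CPM. Replicate 2 was the highest for all of them. Argonaute and small RNA pathway genes held 0.604% ± 0.00552 of the counts, led by *wago-1* (433 ± 9.51 TPM), *hrde-1* (254 ± 9.30 TPM) and *csr-1* (189 ± 5.57 TPM), Argonaute proteins that bind small RNAs in the germline. Splicing factors held 0.922% ± 0.0166 over 58 genes, all detected, with the Sm protein genes *snr-2* and *snr-6* at 818 ± 24.2 and 532 ± 1.201 TPM and *hrpa-1*, an hnRNP protein, at 509 ± 12.6 TPM.

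Sperm messages were nearly absent. The 35 major sperm protein genes, whose product drives the crawling of nematode sperm, had 46, 51 and 33 counts in all, 9 of the genes had none in any library, and none reached 1 CPM in all libraries. *msp-31*, the highest, had 10, 10 and 2 counts. These genes are near-identical copies, so reads fitting several would not have been counted and the low sum is a count of uniquely placed reads. Of 74 other sperm genes 39 were detected, and their 0.0293% of counts was led by *spe-39* (73.9 ± 2.83 TPM) and *spe-48* (48.7 ± 0.23 TPM). *spe-39* acts in vesicle traffic in other tissues as well as in sperm, and 26 of the detected genes stayed under 1 TPM.

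Histone genes held 0.154% ± 0.00524 of the counts, with 42 of 82 detected. Most core histone messages lack a poly(A) tail, and the leading genes encode variants or linker proteins: *htz-1*, the H2A.Z variant, at 649 ± 24.7 TPM, *his-74*, a replacement histone H3, at 543 ± 4.58 TPM and *hil-4*, a linker histone, at 386 ± 15.6 TPM. The detected histone genes had a median of 7.27 TPM.

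The 28 genes for digestive and lysosomal proteases held 0.881%, 0.912% and 0.887% of the counts, and 21 were detected. *cpr-6*, a cathepsin B-like protease, took 1437, 1303 and 1403 CPM. *cpl-1*, a cathepsin L, took 1325, 1178 and 1260 CPM. *asp-6*, an aspartyl protease, took 940, 1175 and 1037 CPM. The cathepsins were lowest and *asp-6* highest in replicate 2, so that members of the class moved in opposite directions between libraries while the class changed little.

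Lipid genes held 1.41% ± 0.0144 of the counts over 98 genes, 94 of them detected. *far-2* alone made up 20.97% of the class, and *lbp-9*, a fatty acid binding protein, stood at 1939 ± 70.1 TPM, *far-1* at 1247 ± 47.8 TPM. The median detected gene of this class was at 38.03 TPM. The class had steady leading genes but 2 of its members, *fat-3* and *fat-5*, were among the 10 genes of highest spread.

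C-type lectin and galectin genes held 0.573%, 0.627% and 0.592% of the counts, with 128 of 252 detected and 64 without a count in any library. *clec-87* alone made up 30.7% of the class, at 1741, 1883 and 1871 CPM, and 138 of its 960 exon bases overlap another gene. Lysozyme, saposin and antimicrobial peptide genes held 0.323% ± 0.00756 of the counts and 0.745% ± 0.0146 of TPM, led by the saposin-like genes *spp-5* (1621 ± 44.4 TPM) and *spp-14* (1437 ± 103.6 TPM) and the lysozyme *ilys-5* (711 ± 9.50 TPM). Of 110 such genes 71 were detected and 45 reached 1 CPM in all libraries.

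The 246 detoxification enzyme genes held 0.578% ± 0.00659, with 229 detected and a median of 4.16 TPM. *prdx-2*, a peroxiredoxin, stood at 1359 ± 48.8 TPM and the glutathione S-transferases *gst-1* and *gst-7* at 530 ± 10.8 and 362.5 ± 20.9 TPM. Infection-response and *dod* genes held 0.101%, 0.130% and 0.115%, the class of largest relative spread (CV 12.3%) among the 38 classes of at least 0.1% of counts. *irg-7*, a gene of the intestinal response to bacteria, made up 41.8% of it, at 406, 542 and 498 CPM. *irg-8* took 201, 290 and 242 CPM and *dod-19* took 152, 203 and 175 CPM, and all were lowest in replicate 1 and highest in replicate 2.

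Nuclear genes of the respiratory chain and ATP synthase held 1.55%, 1.54% and 1.53% of the counts, with 69 of 70 detected and 58 at 100 TPM or more. *atp-2*, the catalytic beta subunit of ATP synthase, took 2318, 2384 and 2362 CPM, *atp-1*, the alpha subunit, took 1920, 1950 and 1962 CPM, and the mitochondrial ADP/ATP carrier *ant-1.1* took 2359, 2434 and 2451 CPM. Each ran lowest in replicate 1, by at most a few percent. The glyoxylate and citric acid cycle held 0.586% ± 0.0127 and glycolysis 0.382% ± 0.0123, and their leading enzymes were *mdh-2*, malate dehydrogenase (596 ± 10.3 TPM), and *aldo-2*, aldolase (612 ± 37.7 TPM).

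The mitochondrial genome itself held 0.626%, 0.518% and 0.600% of the counts (0.581% ± 0.056), lowest in replicate 2. Of its 36 genes the 12 protein-coding genes and both ribosomal RNA genes were detected, and the other 22 had no count. *COX1*, *COX2* and *COX3*, the core subunits of cytochrome oxidase, stood at 1328 ± 135, 1432 ± 118 and 1581 ± 265 TPM and overlapped with each other. *CYTB* (1174 ± 69.0 TPM) and *ATP6* (1129 ± 106 TPM) had lower means, and both overlapped with *COX1*. *ND1* (472 ± 32.99 TPM), *ND4* (302 ± 19.3 TPM) and *ND5* (217 ± 14.1 TPM), subunits of complex I, were lower, with no overlap between them. The complex I genes *ND2* (11.1 ± 2.92 TPM), *ND3* (31.6 ± 10.7 TPM), *ND6* (24.3 ± 6.32 TPM) and *ND4L* (3.57 ± 2.17 TPM) were far below these. *COX1*, *COX2*, *COX3*, *ATP6* and *CYTB* were lowest in replicate 2, whereas *ND2*, *ND3*, *ND6* and *ND4L* were lowest in replicate 1 and highest in replicate 3.

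Structural genes differed in how widely their families were used. Cuticle collagens held 1.32%, 1.23% and 1.21% of the counts. Of their 176 genes 133 were detected (75.6%), near the 74.3% of all protein-coding genes. Only 54 (30.7%) reached 1 CPM in all libraries, against 53.2% of protein-coding genes. A mean of 100 CPM was reached by 19, and 6 genes held 50% of the class. *col-181* took 1507, 1439 and 1374 CPM, *col-106* took 1138, 1069 and 1019 CPM, and *col-119* took 1045, 1067 and 993 CPM. All were lowest in replicate 3. *col-19*, the adult cuticle collagen, stood at 377 ± 22.6 TPM, against 1.27 ± 0.334 TPM for the larval-stage collagen *dpy-7*.

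Muscle filament genes, all 54 detected, held 0.419%, 0.399% and 0.428% of the counts. Their members of highest TPM were *unc-60* (1171 ± 35.6 TPM), an actin-severing factor with forms made in and outside muscle, *cpn-1* (453 ± 19.3 TPM), a calponin, and *mlc-4* (411 ± 8.68 TPM), a non-muscle myosin light chain. *unc-54*, the main myosin heavy chain of body wall muscle, took 365, 363.2 and 402 CPM and stood at 79.1 ± 5.15 TPM. Basement membrane genes held 0.111% ± 0.0023, with the collagen IV chains *let-2* and *emb-9* at 65.3 ± 3.56 and 40.2 ± 0.592 TPM.

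Tubulins held 0.481%, 0.542% and 0.504% of the counts. *tbb-2*, a beta-tubulin, took 1721, 2022 and 1857 CPM, *tba-2*, an alpha-tubulin, took 1350, 1491 and 1417 CPM and *tbb-1* took 769, 852 and 789 CPM. The order of libraries was the same for each, with replicate 1 the lowest and replicate 2 the highest. The 5 actin genes held 0.183% ± 0.00609, of which *act-2* made up 61.8%. *act-2* stood at 1149 ± 63.5 TPM, *act-5*, the actin of intestinal microvilli, at 299 ± 7.76 TPM and *act-4* at 169 ± 4.12 TPM. The actin genes are nearly identical in their coding parts, so reads that could not be placed are missing from each.

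Regulatory and neuronal families were numerous but took few reads. Nuclear hormone receptors held 0.143%, 0.143% and 0.143% of the counts over 273 genes, 199 of them detected. The median of those detected was 2.16 TPM and the highest, *nhr-49*, a regulator of fat metabolism, stood at 65.3 ± 1.84 TPM. Developmental transcription factors held 0.127% ± 0.002, led by *pal-1* (152 ± 4.17 TPM), a homeodomain protein supplied by the mother. The signalling group held 0.676% ± 0.0107, with *let-92*, a phosphatase 2A subunit, at 354 ± 9.76 TPM. Hedgehog- and patched-related genes held 0.1501% ± 0.00267, and *ptc-1*, a patched protein needed in the germline, made up 57.3% of it.

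The 1317 genes grouped as chemoreceptors held 0.0318% of the counts. Of these, 141 were detected, 774 had no count in any library and 12 reached 1 CPM in all. The class's highest members were *odr-8* (90.1 ± 2.36 TPM) and *odr-4* (40.6 ± 0.398 TPM), which help receptors reach the cell surface and are not receptors themselves. *srh-237*, the next, stood at 14.7 ± 1.58 TPM.

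The 63 synaptic and neuropeptide processing genes, all detected, held 0.156% ± 0.00192. *snb-1*, synaptobrevin, stood at 248 ± 5.03 TPM. *tbh-1* (196 ± 9.11 TPM) and *tdc-1* (134 ± 3.53 TPM), enzymes of octopamine and tyramine synthesis that the gonadal sheath cells also make, followed. Both overlap other genes, by 398 of 2182 and 73 of 2490 exon bases. Neuropeptide and insulin genes held 0.0468% ± 0.000944, with a count in at least 1 library for 130 of 134 genes and *nlp-40*, a peptide released by the intestine, at 229 ± 9.13 TPM.

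The remaining classes were small or rested on single genes. V-ATPase genes, which build the proton pump of acid compartments, were all detected (21 of 21), held 0.443% ± 0.00464 of the counts and had a median CV of 2.15%. Their gene *vha-2* stood at 763 ± 19.9 TPM. Channels and solute carriers held 0.480% ± 0.00198 over 288 genes, 261 of them detected, with *eat-6*, the sodium pump, at 322 ± 7.38 TPM against a median of 1.32 TPM. Mitochondrial ribosomal proteins, all 66 detected, held 0.332% ± 0.0107 with a median of 73.7 TPM, far under that of the cytosolic class.

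Enzymes of S-adenosylmethionine and one-carbon metabolism held 0.302% ± 0.00345, and *ahcy-1*, S-adenosylhomocysteine hydrolase, made up 37.4% of it. The *pqn* and *abu* genes held 0.368% ± 0.00409, and *pqn-59* made up 29.2% of it. Of the ferritin and globin genes, *ftn-2*, a ferritin heavy chain, made up 88.3% and took 203, 209 and 196 CPM. Its paralogue *ftn-1* took 7.95, 2.46 and 2.96 CPM and was highest in replicate 1. The nematode-specific *nsp* peptide genes held 0.011% ± 0.001035, led by *nspc-4* (66.6 ± 3.48 TPM). Of the 6 *pud* genes only *pud-3* (82.4, 82.6 and 63.9 CPM) and *pud-4* (27.8, 25.8 and 19.9 CPM) were detected in all libraries, both lowest in replicate 3.

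The classes together held 44.8% of the counts over 4996 genes, of which 3144 were detected. The rest lay in genes without a class, among them 11438 detected protein-coding genes. Their symbols matched no class pattern, so some may share the function of a class, and the share of that class may be too low. The most abundant protein-coding genes without a class were *vig-1*, an RNA-binding protein found in the RNA interference complex (2132, 2108 and 2201 CPM), and *Y37E3.8* (2152, 2114 and 2009 CPM). They were followed by *icd-1*, a subunit of the nascent polypeptide-associated complex (1793, 1719 and 1772 CPM), *ndk-1*, a nucleoside diphosphate kinase (1669, 1801 and 1761 CPM), and *nasp-2*, a histone chaperone (1598, 1671 and 1587 CPM). The others of the first 10 were *pygl-1*, *rack-1*, *sip-1*, *Y82E9BR.3* and *par-5*, with means of 1224 to 1348 CPM.

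Over the 38 classes of at least 0.1% of counts the median CV of the share was 1.79% and 34 had a CV under 5%, from 0.244% for nuclear hormone receptors to 12.3% for infection-response genes. Ordered by share, 15 of the 44 pairs of neighbouring classes overlapped between libraries, for example chaperones with oocyte RNA-binding genes. Replicate 1 was the lowest for 23 of the 38 classes and replicate 2 the highest for 16. Gene by gene this did not hold over the 6007 genes of at least 20 CPM. Replicate 1 was the highest for 2387 of them and the lowest for 1816. Replicate 2 was the highest for 1934 and the lowest for 2187. Shares sum to a fixed total, so a library with more vitellogenin reads has less room for others. The vitellogenin share was highest in replicate 3, which was the lowest for 7 of the 38 classes. Any part of the fixed total in the order of libraries was not tested.

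**Figure D3:**
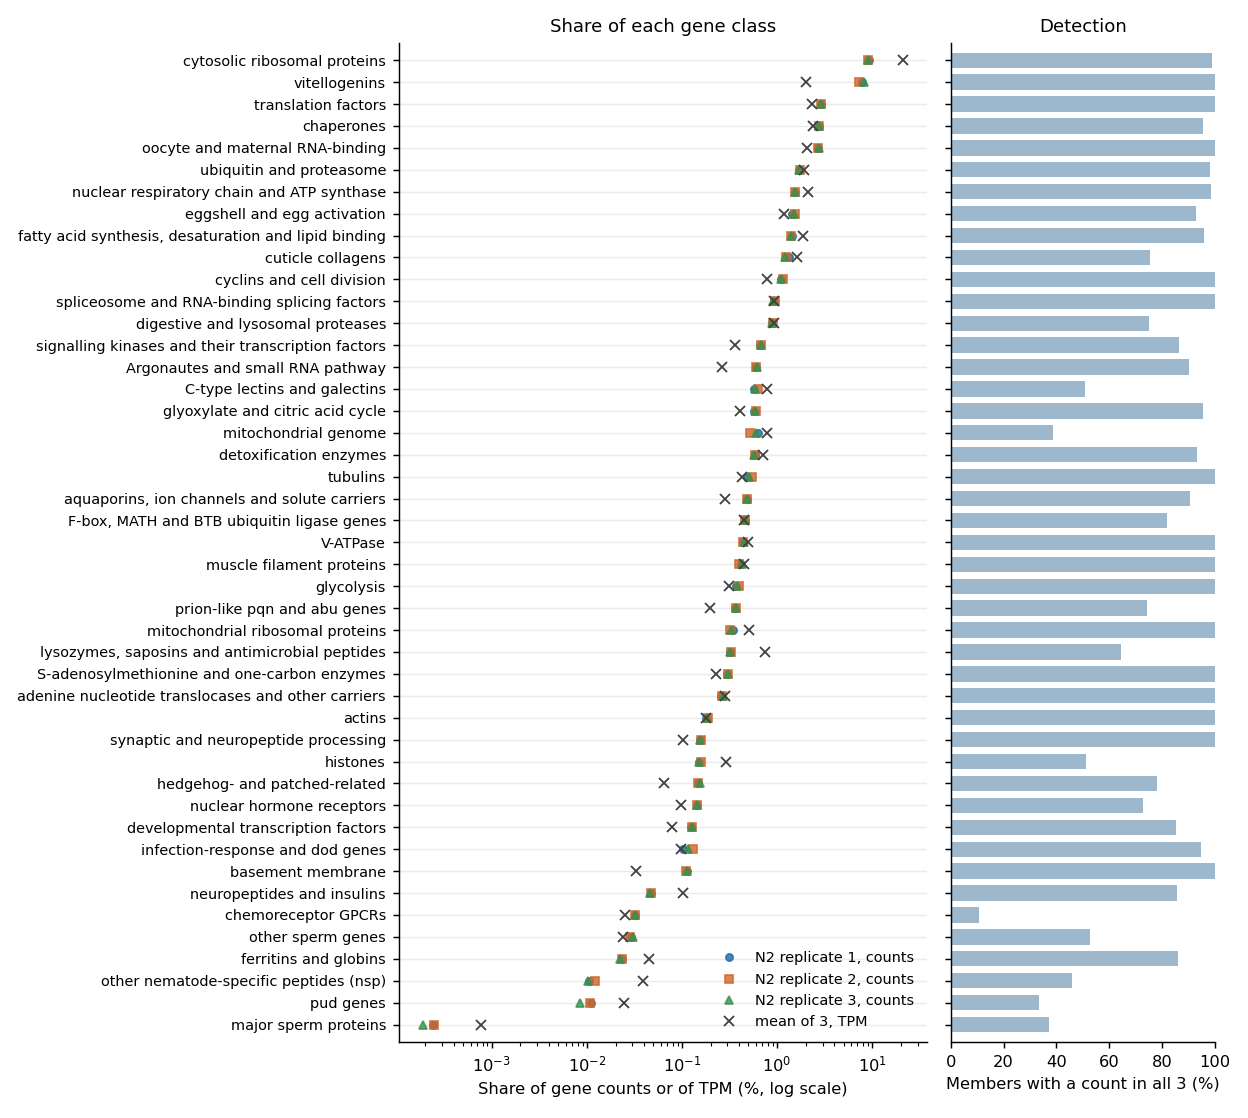
Share of each of the 45 gene classes in percent on a log axis (left), with 1 coloured point per N2 library for counts and a cross for the mean share of TPM, and the percentage of members with a count in all 3 libraries (right). Ribosomal proteins (9.16% of counts, 21.01% of TPM) and vitellogenins (7.72% and 2.02%) lead by counts and move in opposite directions between the scales. Chemoreceptors have the lowest detection.

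The scale changed the make-up more than the library did. Vitellogenins, with exon lengths of 4870 to 5088 bases, fell from rank 2 of the classes by counts to rank 6 by TPM (2.02% ± 0.119), while lysozymes, saposins and antimicrobial peptides had 2.31 times their share of counts in TPM. Basement membrane genes had 0.297 times their share of counts. Ribosomal proteins were first on both scales.

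By median TPM of their genes, the marker lists of oocytes (596 TPM), intestine (241 TPM) and germline (230.0 TPM) were the highest of the 18 lists, ahead of body wall muscle (75.2 TPM). The intestine median was that of *cpr-1* (320, 189 and 215 TPM) and the germline median that of *glh-1* (234.5, 225 and 230 TPM). The order of these 2 lists was thus not resolved. Sums of CPM below give the reads each list took in each library. The 7 intestine markers summed to 53439, 51095 and 56251 CPM, nearly all of it *vit-2* and *vit-6*. Of the rest, *asp-1*, an aspartyl protease, took 840, 1014 and 908 CPM, and *cpr-1*, a cathepsin B-like protease, took 267, 156 and 176 CPM. *pept-1* took 75.05, 60.5 and 71.6 CPM, and *ges-1* took 22.5, 19.2 and 22.1 CPM. The gut master regulator *elt-2* took 10.2, 9.69 and 9.56 CPM. The 7 oocyte markers summed to 7901, 8655 and 8453 CPM. Among them *cpg-1*, an eggshell proteoglycan, took 1899, 2133 and 1994 CPM, and *rme-2*, the yolk receptor of oocytes, took 1015, 1096 and 1054 CPM. Oocyte markers were thus lowest in replicate 1, and vitellogenins in replicate 2.

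The 7 germline markers summed to 3590, 3609 and 3721 CPM. *gld-1*, a translational repressor of the meiotic germline, took 951, 955 and 1041 CPM and *mex-5*, an RNA-binding protein of oocytes and early embryos, took 961, 1008 and 1033 CPM. Body wall muscle markers summed to 918, 885 and 977 CPM, hypodermis and seam markers to 446, 434 and 469 CPM, and neuronal markers to 259, 253 and 251 CPM. The remaining somatic lists ran from 5.66, 6.46 and 4.67 CPM for coelomocytes to 489, 495 and 520 CPM for gonad sheath and spermatheca. Single genes carried several of these sums. *col-19*, *snb-1* and *fln-1*, at means of 270, 154 and 395 CPM, made up most of the hypodermis, neuronal and gonad sheath sums.

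Markers of sperm and of males were at or near 0. The 8 sperm markers summed to 1.04, 0.771 and 0.854 CPM, with *msp-19*, *spe-11* and *ssp-16* at 0 in all libraries. Of the 8 male markers 6 were measured, 3 of those, *mab-23*, *lov-1* and *srj-54*, were at 0, and the sum was 0.104, 0.193 and 0.341 CPM. The 8 genes switched on in the zygote after fertilisation summed to 14.9, 18.4 and 14.5 CPM, of which *pes-10* took 6.39, 9.59 and 7.23 CPM and the gut factor *elt-7*, which intestinal cells also make, took 4.16, 5.06 and 4.55 CPM. Larval moult and dauer markers summed to 39.5 to 45.9 CPM. The sums of the zygotic embryo and larval lists were both highest in replicate 2, but their genes did not all follow. In the zygotic list *med-1*, *end-1*, *end-3* and *tbx-37* were highest in another library. The same held for *mlt-10*, *col-40*, *cut-1* and *dod-24* in the larval list. Any part of these lists in the higher eggshell, tubulin and cyclin shares of replicate 2 was not tested.

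Counts were unevenly placed along the genome. Of the reads on nuclear protein-coding genes, chromosomes I and III held 21.2% ± 0.0441 and 20.7% ± 0.0741 with 14.4% and 13.2% of the genes, and chromosome V held 14.3% ± 0.115 with 25.2% of the genes. Detection was 81.3% on I, 87.3% on III and 59.1% on V. The X chromosome, with 13.6% of the genes, held 10.2% ± 0.22, and 5.57% once the vitellogenins were left out of both sides.

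**Figure D4:**
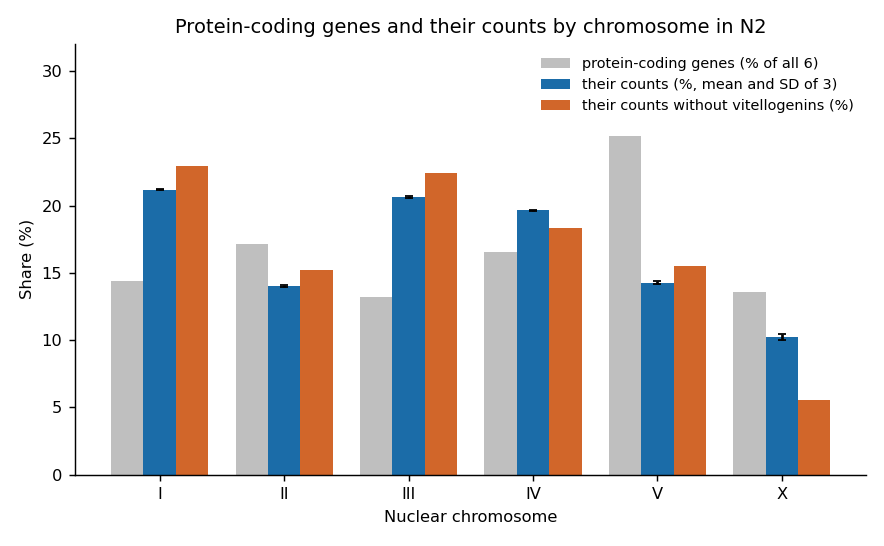
Share in percent of protein-coding genes (grey), of their counts (blue, mean and SD of 3 N2 libraries) and of their counts without the vitellogenins (orange) on each nuclear chromosome. The X chromosome drops from 10.2% to 5.57% without the vitellogenins, and chromosome V has 25.2% of the genes but 14.3% of the counts.

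Protein-coding genes held 98.9%, 98.5% and 99.1% of all counts, and the lower value of replicate 2 goes with its higher rRNA share. Genes annotated as pseudogenes held 0.355% ± 0.011, led by *prg-2* (510, 434 and 484 CPM), a Piwi gene, and *F07H5.5* (311, 291 and 312 CPM). Non-coding RNA genes held 0.0709% ± 0.00338, led by *tts-1* (197, 173 and 190 CPM), a long RNA that associates with ribosomes, and large intergenic RNAs held 0.0117% of the counts, led by *Y9D1A.1* (21.4, 25.7 and 24.4 CPM) and *lep-5* (19.7, 21.1 and 19.4 CPM). The small nucleolar RNA genes with most counts, *K10D3.10* and *ZK858.10*, lie wholly inside exons of other genes in the annotation used here. The piRNA gene *21ur-14269* does too. Reads that touched several genes were left out of the counts, so how these genes came to have counts was not determined. Transfer RNA, microRNA and small nuclear RNA genes held under 0.001% each.

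A count was found for 17461, 17564 and 17148 genes in the 3 libraries. In all 3, 15592 genes were detected, 14580 of them among the 19617 annotated as protein-coding (74.3%). The detection counts of the classes above are to be read beside that share. Another 3848 genes had counts in 1 or 2 libraries only, with a median total of 2 counts and at most 23. The remaining 27286 of 46726 identifiers had no count, 15116 of them piRNA genes. At 10 counts in every library 11860 genes passed, and 10817 reached 1 CPM, 7049 reached 10 CPM and 2251 reached 100 CPM. With each library thinned to the smallest total, 15463 genes were expected in all 3, and 17309, 17283 and 17148 in each.

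The median over genes detected in all 3 libraries was 7.20 CPM. The 4394 detected genes under 1 CPM held 0.161% of the counts and the 3990 between 1 and 10 CPM held 1.56%. The 4869 genes between 10 and 100 CPM held 21.04%, the 2219 between 100 and 1000 CPM held 50.5%, and the 120 above held 26.7%. Intermediate genes, not the highest, thus carried most of the reads.

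The libraries were close to each other but not within sampling noise. Across the 11198 genes of at least 1 CPM the correlation of log2(CPM + 1) between pairs of libraries was 0.996 to 0.997 (a description across genes, which are not independent). Chi-square per degree of freedom was 9.77 for replicates 1 and 2, 4.09 for 1 and 3 and 9.72 for 2 and 3, where sampling alone gives 1. Without *rrn-3.1* these values were 6.73, 3.63 and 4.51, so no pair looked like repeat deposits of 1 library, which does not show that the RNA came from separate cultures. The edgeR dispersion gave a coefficient of biological variation of 5.63% over 11771 genes, falling from 11.9% at 2 CPM to 7.74% at 20 CPM and 4.15% at 200 CPM.

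The spread was largest for genes with few reads. The median CV was 36.1% under 1 CPM, 13.2% from 1 to 10 CPM, 4.81% from 10 to 100 CPM, 2.96% from 100 to 1000 CPM and 3.23% above. The median counting CV, computed from each gene's mean count, was 42.01%, 12.95%, 3.72%, 1.75% and 0.609% in these groups. The spread of genes above 1000 CPM was several times their counting error. The median CV seen in 3 libraries falls short of the true CV, so values near the counting error at low levels do not show that counting was the whole spread.

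Among the 6007 genes of at least 20 CPM the median CV was 3.68%, 35 genes exceeded a CV of 20% and 9 differed by more than 2-fold between the highest and lowest library. The 10 genes of highest SD on the log2(CPM + 1) scale ran from 0.49 to 2.16. *F42A10.7* (III, 6177916 to 6178686) ranged from 3.47 CPM in replicate 2 to 85.5 CPM in replicate 1. *thn-2* (IV, 12383170 to 12383974), a thaumatin-like protein of the kind made in response to infection, took 186, 38.1 and 68.2 CPM. After *rrn-3.1* came *pmp-4*, a peroxisomal ABC transporter, at 54.7, 15.9 and 23.9 CPM. These genes other than *rrn-3.1* were highest in replicate 1, in the middle in replicate 3 and lowest in replicate 2.

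*pcp-1*, a prolyl carboxypeptidase-like protease, took 73.2, 28.8 and 35.7 CPM, *ptr-24*, a patched-related protein, took 78.3, 37.8 and 44.6 CPM, and *T01D3.6* took 52.1, 25.01 and 30.3 CPM. The fatty acid desaturases *fat-3* and *fat-5* took 132, 65.2 and 90.4 CPM and 133, 66.7 and 96.96 CPM. In all, 8 of the 10 were highest in replicate 1 and lowest in replicate 2. The exceptions were *rrn-3.1* and *C17H12.8* (24.2, 51.95 and 35.6 CPM), which were highest in replicate 2. Over all 6007 genes these were also the most frequent places, with replicate 1 the highest for 2387 and replicate 2 the lowest for 2187.

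No library stood apart over most genes. Replicate 1 exceeded both others by more than 1.2-fold for 50 of the 6007 genes and lay below both for 19, replicate 2 for 53 and 40, and replicate 3 for 4 and 9. Replicate 3 thus had the fewest genes away from both others.

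**Figure D5:**
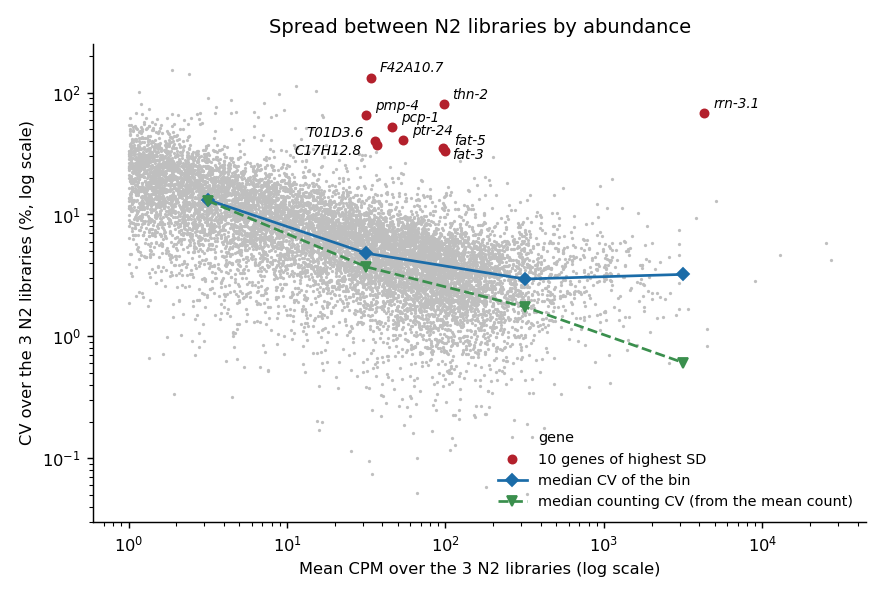
CV over the 3 N2 libraries in percent against mean CPM, both on log axes, for genes of at least 1 CPM (grey points), with the median CV of each 10-fold group (blue) and the median counting CV computed from mean counts (green). The gap between the medians is widest above 1000 CPM (3.23% against 0.609%), and the 10 genes of highest SD at 20 CPM or more are named.

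The steadiest genes of at least 20 CPM were *fkb-6*, an FK506-binding protein (326, 326 and 327 CPM), *F59B2.3* (66.2, 66.3 and 66.3 CPM) and *mog-5*, a splicing helicase (180, 180 and 180 CPM). The 10 lowest SDs on the log2 scale were all under 0.01, and 28.8% of the 6007 genes had a CV below their counting error, so a value this small is what the lowest of many estimates from 3 libraries can give. The study's reference genes for quantitative PCR were also steady, with *cdc-42* at 219, 224 and 222 CPM and *pmp-3* at 113, 117 and 114 CPM. *mbl-1* (X, 16978608 to 17010302), the muscleblind splicing factor the study is about, took 12.1, 11.8 and 12.97 CPM in these wild-type animals, 4.89 ± 0.274 TPM.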

How the data were processed

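N2 libraries were assigned by their sample titles. Per the labels and the study's methods, the authors made stranded poly(A) libraries from TRIzol-extracted RNA, aligned the reads with STAR to the WBcel235 transcriptome, and deposited raw HTSeq counts per gene made without regard to strand (tool versions are not given in the sources used here). Without strand, reads of overlapping genes on opposite strands cannot be told apart, and of the 15431 annotated genes detected, 4910 (31.8%) share exon bases with another gene. Summary entries (multiple alignment, several genes, no gene) were left out of totals.

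CPM, TPM (counts per base of merged exons, scaled to a fixed total), shares, CV and SD of log2(CPM + 1) were computed with Python 3.11.15, numpy 2.4.6, pandas 2.3.3 and scipy 1.17.1, and dispersions with edgeR 4.0.16 in R 4.3.3 with an intercept only. That step was tested on simulated data. Figures were drawn with matplotlib 3.10.9. "Detected" means at least 1 count in all 3 libraries, and a CV or SD over genes used means of at least 1 CPM unless stated.

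Names, biotypes, positions and exon lengths came from annotation release 115, which held 46364 of 46726 identifiers (99.2%). The annotation named 43623, RefSeq genes matched by position 1004, and 2099 kept their identifier. Identifiers outside the annotation held 0.279% of the counts and have no TPM. Classes are ordered symbol patterns for protein-coding genes and all genes of the mitochondrial genome. Each class is a list of names and not of functions.

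The classes, markers and members were chosen with earlier results of these data known, and some class patterns were edited after values had been seen. The genes named in the text were drawn, not all of them printed, from the 20 genes of highest mean CPM and TPM, the 3 of highest mean TPM per class, the 10 of highest and lowest SD at 20 CPM or more, the 10 most abundant without a class, the leading genes of non-coding biotypes, marker genes, vitellogenins, mitochondrial genes, *mbl-1*, *cdc-42* and *pmp-3*. *rpl-24.2* and *rpl-3*, the ends of their class, and *irg-7* were named after values were seen. A gene of the signalling class that this rule takes is not reported here. No test was made. Alternatives were other totals, TPM, exon bases in no other gene, detection limits, thinning, TMM and RLE scaling (RLE with DESeq2 1.42.0), other filters, a pseudocount of 0.5 CPM and each library left out. Totals with multiply aligned reads, totals and library pairs without *rrn-3.1*, exon bases in no other gene and the limit of 20 CPM were added after seeing the data.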

Additional observations from a re-analysis of the deposited data

How the results depend on the processing

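The SD on the log2 scale stayed within 1.5 times under every alternative tried. The number of detected genes did so too, except at limits of 10 CPM and higher (7049 genes at 10 CPM against 15592). Per base of exon the share of ribosomal proteins was 21.01% and of vitellogenins 2.02% (20.9% and 1.995% over bases in no other gene), that of the first 10 genes 5.89% and of the first 100 genes 30.3%, and 359 genes held 50%. With ambiguous and multiply aligned reads in the total, ribosomal proteins held 8.19% and vitellogenins 6.90%, the lower values following from the larger total. Without the mitochondrial genome and vitellogenins the first 10 genes held 4.41% and the first 100 held 19.1%, and without *rrn-3.1* the first 100 held 24.5%. The median CV was 5.79% over genes of at least 1 CPM, 14.5% with no filter on low counts and 3.68% at 20 CPM or more.

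Leaving out each library in turn, ribosomal proteins held 9.10% to 9.21%, vitellogenins 7.54% to 7.96%, the first 10 genes 9.91% to 10.1% and the first 100 genes 24.6% to 24.8%. Between 16017 and 16243 genes were detected in the libraries left, and the median CV was 4.54% to 5.01% with 2 libraries. Of the other 43 classes, the TPM scale moved 16 by more than 1.5 times (8 up, 8 down), and no other total did. Reads that fit several places are missing from near-identical genes by an amount that was not measured, since a genome was not used here. A planned correction for windows of read length that occur once in the genome was therefore not run. No paired analysis was possible because the 3 libraries are 1 group.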
